A study of Mus musculus with 10 samples.

Results

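The 7 genes described here, Sox10, Erbb3, Mbp, Pmp22, S100b, Fabp7 and Gfap, are markers of the glia that accompany the nerves and chromaffin cells of the adrenal gland. They were chosen by name, and each was read from its only probe that is paired with 1 gene symbol, out of 19661 genes measured in this way. Whole adrenal RNA from 10 mice was hybridised to Affymetrix mouse arrays, with a separate array for each animal. By the labels, 5 of the mice were Crem-/- (KO), which lack an intact copy of the transcription factor gene Crem (cAMP responsive element modulator), and 5 were wild-type (WT). All mice were 8 weeks old, untreated, of mixed background (129Pas x C57Bl/J) and killed at 0 h circadian time. Values are levels on the log2 scale after RMA, a procedure that corrects background, equalises the arrays and summarises probes, and every difference is KO minus WT.

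Schwann cells and sustentacular cells, related kinds of glia, derive from the neural crest in the adrenal gland. Schwann cells wrap the preganglionic nerve fibres that enter the medulla, and sustentacular cells lie between the catecholamine-producing chromaffin cells. Neuregulin from axons acts on ErbB3 receptors of the Schwann lineage, the transcription factor SOX10 keeps the lineage in its glial state, and myelinating Schwann cells make myelin basic protein (Mbp) and peripheral myelin protein 22 (Pmp22). S100b, Fabp7 and Gfap encode proteins of Schwann, satellite and sustentacular glia. Several of these genes are not particular to glia: adipocytes also make S100b, epithelia also make Erbb3, and fibroblasts also make Pmp22. In RNA of a whole gland, fewer cells of a type and less RNA per cell cannot be told apart.

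The promoters of S100b and Fabp7 are shown because these are the pair of calcium- and lipid-binding glia genes whose levels ran in opposite directions over the arrays. The 250 bases before each start site are written 5′ to 3′ from the plus strand, on which both genes lie (RefSeq, build GRCm38.p6), and capitals mark the CCAAT box, searched as CCAAT on both strands.
S100b, chr10:76253586-76253835: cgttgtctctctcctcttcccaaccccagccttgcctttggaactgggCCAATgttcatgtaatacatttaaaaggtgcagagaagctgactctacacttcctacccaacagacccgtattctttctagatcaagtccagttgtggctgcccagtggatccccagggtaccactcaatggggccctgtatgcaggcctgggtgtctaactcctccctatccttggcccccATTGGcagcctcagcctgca
Fabp7, chr10:57784673-57784922: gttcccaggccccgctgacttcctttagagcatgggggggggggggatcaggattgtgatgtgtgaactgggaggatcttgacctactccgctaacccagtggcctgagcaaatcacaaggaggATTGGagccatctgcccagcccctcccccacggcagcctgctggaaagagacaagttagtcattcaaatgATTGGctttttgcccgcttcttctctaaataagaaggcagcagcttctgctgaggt
Each window held 2 CCAAT boxes, the windows of Pmp22 held 1 or 0 and that of Gfap held 0. Of 32851 mouse promoter windows of the same length, 33.9% held at least 1, and the share with 2 was not counted. The cAMP response element to which CREM binds, searched as TGACGTCA, and its core TGACG, which overlaps it, were in neither window on either strand, nor in the windows of Pmp22 and Gfap. They occurred in 1.55% and 17.8% of all windows. The SOX core letters ACAAAG or ACAATG, found in 25.2% of all windows, and TATAAA, found in 12.4%, were not in these windows either. Windows were read for 4 of the 7 members, and those of Sox10, Erbb3 and Mbp were not searched. Such a match, or its absence, describes only the letters of the window.

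The labels place KO 1, KO 2 and WT 1 in batch 1, KO 3 and KO 4 in batch 2, KO 5, WT 2, WT 3 and WT 4 in batch 3, and WT 5 in batch 4. Array medians lay between 7.17 and 7.25, and with 10 arrays the precision is limited by their number. Crem itself did not separate the labels: its level was 6.84 to 7.97 on KO arrays and 7.23 to 8.14 on WT arrays (difference -0.18, exact permutation p = 0.516). Whether its probe lies in the disrupted part of the gene is not known here, so this does not check the labels. The array KO 1 stood apart, with a mean level of 26 measured chromaffin genes of 7.62 against 9.79 to 10.56 on the other arrays. It also carried liver transcripts, with Alb at 14.1 against 6.53 to 11.3 on the other arrays. The list of liver and exocrine pancreas genes had a mean of 11.04 there against 6.53 to 8.37. Its pancreas genes Cela2a, Prss2 and Cpa1, at 7.03, 6.11 and 6.18 on KO 1, lay inside the range of the other arrays. Together with KO 3, KO 1 carried fat transcripts (list means 12.60 and 12.38 against 8.14 to 10.68). Star and Cyp11b1, genes of steroid synthesis in the cortex, were at 13.31 or higher on every array.

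None of the glia genes passed the test between genotypes. Of 7 members, 0 had a limma adjusted p under 0.05 over all probes, beside 0% of 25664 probes. KO and WT arrays overlapped for each of the 7, beside 0.717% of 19661 genes whose arrays did not overlap. At an unadjusted limma p under 0.05, Pmp22 was the 1 member lower in KO, beside 2.5% of probes, and 0 members were higher, beside 0.923% of probes. In all, 4 members had a higher mean in KO and 3 a lower one, with a median difference of 0.02, against -0.0027 over all probes.

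**Figure D1:**
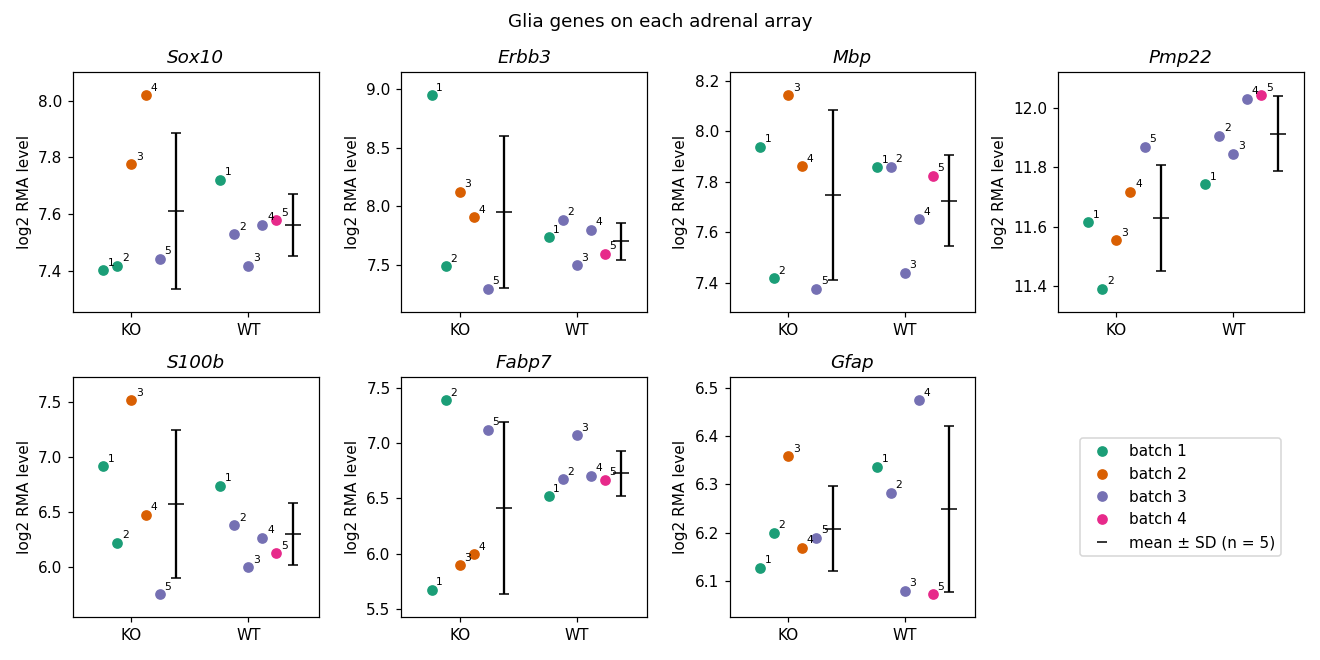
Level of each glia gene (log2 RMA level, vertical axis) on the KO and WT arrays. Each point is 1 mouse, numbered by replicate and coloured by the labelled batch, and the bar is the mean ± SD (n = 5). KO and WT points overlap in all 7 panels, and the KO spread is wider than that of WT in every panel but Gfap.

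Sox10 (probe 10430458), the master regulator of the Schwann lineage, was at 7.40, 7.42, 7.78, 8.02 and 7.44 on KO 1 to KO 5. On WT 1 to WT 5 it was at 7.72, 7.53, 7.42, 7.56 and 7.58. The highest values were those of KO 4 and KO 3, the pair of batch 2, KO 1 and KO 2 lay just below the lowest WT array, and KO 5 lay inside the WT range. The mean was 7.61 ± 0.28 on KO arrays and 7.56 ± 0.11 on WT arrays (SD, n = 5), and these differed by 0.05 (SE 0.13; exact permutation p = 0.730).

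Erbb3 (probe 10373467), the neuregulin receptor of Schwann cells, was at 8.95, 7.49, 8.12, 7.90 and 7.30 on KO 1 to KO 5. It was at 7.73, 7.89, 7.50, 7.80 and 7.59 on WT 1 to WT 5. KO 1 was the highest array, 1.25 above the mean of the others, and KO 5 and KO 2 were the lowest. The KO mean of 7.95 ± 0.65 and the WT mean of 7.70 ± 0.16 (SD, n = 5) differed by 0.25 (SE 0.27; exact permutation p = 0.484). Without KO 1 the difference was 0.000633. KO 1 is also the array with the highest liver transcripts, and the part of liver in its Erbb3 level was not tested.

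Mbp (probe 10457022), which compacts the cytoplasmic faces of the myelin sheath, was at 7.94, 7.42, 8.14, 7.86 and 7.38 on KO 1 to KO 5. The WT 1 to WT 5 levels were 7.86, 7.86, 7.44, 7.65 and 7.82. The arrays fell low on KO 5, KO 2 and WT 3, which span both genotypes. With 7.75 ± 0.34 for KO and 7.73 ± 0.18 for WT (mean ± SD, n = 5), the genotypes differed by 0.02 (SE 0.16; exact permutation p = 0.849).

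Pmp22 (probe 10376950), a membrane protein of compact myelin, was at 11.61, 11.39, 11.55, 11.72 and 11.87 on KO 1 to KO 5. It was at 11.74, 11.91, 11.85, 12.03 and 12.05 on WT 1 to WT 5. The lowest 4 arrays were KO, but KO 5 lay above WT 1 and WT 3. The mean was 11.63 ± 0.18 in KO and 11.92 ± 0.13 in WT (SD, n = 5), a difference of -0.29 (SE 0.11), or a KO level 0.82 times that of WT. The exact permutation p was 0.0238, where the smallest p that 252 choices of 5 arrays allow is 0.00794 and 7 members were compared, and the limma p adjusted over all probes was 1.00. A block for batch, whose difference draws only on batches 1 and 3, gave -0.14, and these batches taken alone gave -0.24 and -0.06. It was -0.28 without KO 1 and negative in every fit that was made. Marker lists of other cell types were lower in KO on the same side as Pmp22: endothelial genes for 10 of 10 measured (median -0.33), macrophage genes for 10 of 10 (median -0.25) and genes of capsule, fibroblasts and mural cells for 10 of 12 (median -0.21). The Pearson correlation of Pmp22 with these list means was 0.54, 0.46 and 0.40 over the 10 arrays, and 0.49, 0.56 and 0.67 without KO 1. Cortex genes were lower too, for 10 of 11 (median -0.12), with r at 0.45, or 0.38 without KO 1. Chromaffin genes were lower for 25 of 26, but for 17 without KO 1, and r was 0.14, or -0.39 without it. Adipocyte genes were higher for 11 of 11 and liver and exocrine pancreas genes for 9 of 9, or 5 and 8 without KO 1. Of all probes, 50.6% were lower. The part of any of these cells in the Pmp22 difference was not tested.

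S100b (probe 10364149), a calcium-binding protein that marks sustentacular cells in histology, was at 6.92, 6.22, 7.52, 6.48 and 5.76 on KO 1 to KO 5. It was at 6.74, 6.38, 6.0, 6.27 and 6.13 on WT 1 to WT 5. KO 3 and KO 1, the arrays with the most fat transcripts, were the highest, and KO 5 was the lowest. With 6.58 ± 0.67 for KO and 6.30 ± 0.28 for WT (mean ± SD, n = 5), the genotypes differed by 0.27 (SE 0.29; exact permutation p = 0.437). Without KO 1 and KO 3 the difference was -0.15, but these arrays held its highest levels, so a fit without them is no test of S100b. Over the 10 arrays the Pearson correlation of S100b with the mean of 11 adipocyte genes was 0.69, and the part of fat in its level was not tested.

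Fabp7 (probe 10363224), a fatty acid binding protein of immature Schwann cells and satellite glia, was at 5.68, 7.38, 5.90, 5.99 and 7.12 on KO 1 to KO 5. It was at 6.52, 6.67, 7.07, 6.70 and 6.67 on WT 1 to WT 5. The KO arrays split around the WT range, with KO 2 and KO 5 above every WT array and KO 1, KO 3 and KO 4 below every WT array. With 6.41 ± 0.78 for KO and 6.72 ± 0.21 for WT (mean ± SD, n = 5), the genotypes differed by -0.31 (SE 0.32; exact permutation p = 0.405). KO 2, KO 5 and WT 3 held its 3 highest levels, so a fit without them is no test of Fabp7.

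Gfap (probe 10391798), the intermediate filament of astrocytes and of non-myelinating Schwann cells, was at 6.13, 6.20, 6.36, 6.17 and 6.19 on KO 1 to KO 5. It was at 6.34, 6.28, 6.08, 6.47 and 6.07 on WT 1 to WT 5. WT 4 was the highest array and WT 5 the lowest, and all KO arrays lay between them. With 6.21 ± 0.09 for KO and 6.25 ± 0.17 for WT (mean ± SD, n = 5), the genotypes differed by -0.04 (SE 0.10; exact permutation p = 0.659). RMA values carry no detection call, so whether the probes of Gfap, S100b, Fabp7, Sox10, Mbp and Erbb3 rose above background could not be judged. The means of Gfap, S100b and Fabp7 lay below the array medians of 7.17 to 7.25. Those of Sox10 (7.61 in KO, 7.56 in WT), Mbp (7.75 and 7.73) and Erbb3 (7.95 and 7.70) lay only a little above.

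The members differed in how much they varied over the 10 arrays. The SD was 0.56 for Fabp7, 0.51 for S100b and 0.46 for Erbb3, and 87.3%, 84.5% and 81.3% of all genes had a smaller one. It was 0.26 for Mbp, 0.21 for Pmp22 and 0.20 for Sox10, near or below the median gene at 0.26. Gfap varied least with 0.13, and 9.41% of genes had a smaller SD.

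The genotype differences depended on which batches were compared. With batch as a block, Sox10 was at -0.18, Mbp at -0.23 and S100b at -0.32, each the opposite sign to the difference over all arrays, and Fabp7 turned to 0.17. The median of the 7 differences moved from 0.02 to -0.14, while the median over all probes moved to -0.055. Within batch 1, which holds 2 KO and 1 WT array, Erbb3 was at 0.48. Within batch 3, which holds 1 KO and 3 WT arrays, it was at -0.43. Gfap and Pmp22 kept a negative sign with the block and within both batches, and no member was called in any of these fits. These within-batch values rest on 1 array in a group.

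**Figure D2:**
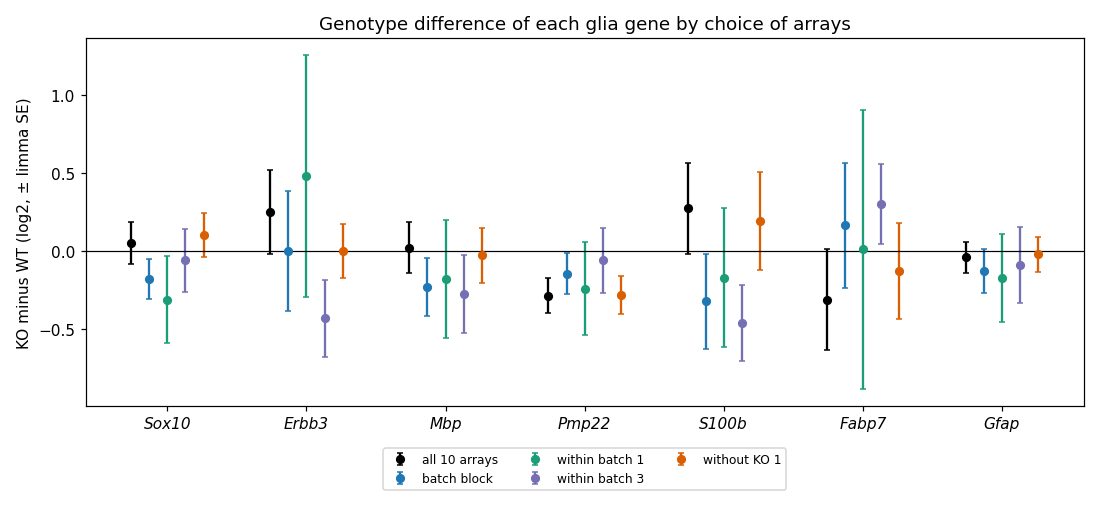
KO minus WT difference of each glia gene (log2, vertical axis) under 5 choices of arrays or fit, with limma standard errors as bars. Black points are all 10 arrays. Pmp22 stays below 0 in each, whereas Sox10, Mbp, S100b and Fabp7 lie on the other side of 0 with batch as a block.

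The next question was whether the glia genes went with the amount of medulla on an array, since sustentacular cells lie among chromaffin cells. Th and Pnmt, enzymes of catecholamine synthesis, were at 8.40 and 7.91 on KO 1, and at 11.34 or higher and 11.23 or higher on the other arrays. None of the glia genes was lower there by a like amount. The difference of KO 1 from the mean of the other arrays was -2.65 for the chromaffin mean, but -0.99 for Fabp7, -0.21 for Sox10, -0.18 for Pmp22 and -0.11 for Gfap. Erbb3, S100b and Mbp were 1.25, 0.53 and 0.22 above the other arrays on KO 1. The chromaffin genes were lower in KO for 25 of 26 measured, with list means of 7.62 to 10.55 on KO and 9.95 to 10.56 on WT arrays. That count rests on KO 1: without it 17 were lower and 9 higher, and the median difference moved from -0.57 to -0.05.

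Over all 10 arrays, none of the Pearson correlations with the chromaffin mean passed a permutation test with 100000 resamples. Sox10 had r = 0.50 (permutation p = 0.104) and Spearman rho = 0.76 (permutation p = 0.0154), and Erbb3 had r = -0.70 (permutation p = 0.101) and rho = 0.27 (permutation p = 0.450). The r of the other members lay between -0.12 for S100b and 0.41 for Gfap. In a limma fit with the chromaffin mean as the covariate, 2.08% of 25664 probes were called, and 0 of the 7 members were among them (lowest adjusted p 0.287, Erbb3).

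Without KO 1, the correlations took another form. S100b went with the chromaffin mean over the 9 arrays (r = 0.72, exact permutation p = 0.0257; rho = 0.93, exact permutation p = 0.00075). Erbb3 had r = 0.79 (exact permutation p = 0.0121), Sox10 r = 0.67 (exact permutation p = 0.0436) and Mbp r = 0.61 (exact permutation p = 0.0810). Fabp7 ran the other way with r = -0.62 (exact permutation p = 0.0764), and Pmp22 had r = -0.39 and Gfap r = 0.55. These p-values are not adjusted for the 7 members. The chromaffin list was not alone in such values on the same 9 arrays. S100b had r = -0.83 with the mean of the cortex list and 0.73 with that of liver and exocrine pancreas. Mbp had r = 0.71 with the macrophage list mean, and Sox10 r = 0.75 with that of the peripheral myelin list described below. With the mean of central nervous system glia genes, also described below, Erbb3 had r = 0.79 and Fabp7 r = -0.90. In the limma fit on these 9 arrays, 0% of 25664 probes and 0 members were called (adjusted p = 0.319 for Sox10, Erbb3, Mbp, S100b and Fabp7). Without KO 1 and KO 5, the arrays farthest from the median chromaffin mean, r was 0.65 for Erbb3, 0.62 for S100b, 0.66 for Sox10 and -0.56 for Fabp7. After centring within batches, with KO 1 included, it was -0.80 for Erbb3, -0.24 for S100b and 0.70 for Fabp7. The sign of Pearson's r for Erbb3, Mbp, S100b, Pmp22 and Fabp7 thus rests on whether KO 1 is included, whereas rho over all 10 arrays already had the sign found without KO 1, at 0.27, 0.37, 0.49, -0.18 and -0.24.

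**Figure D3:**
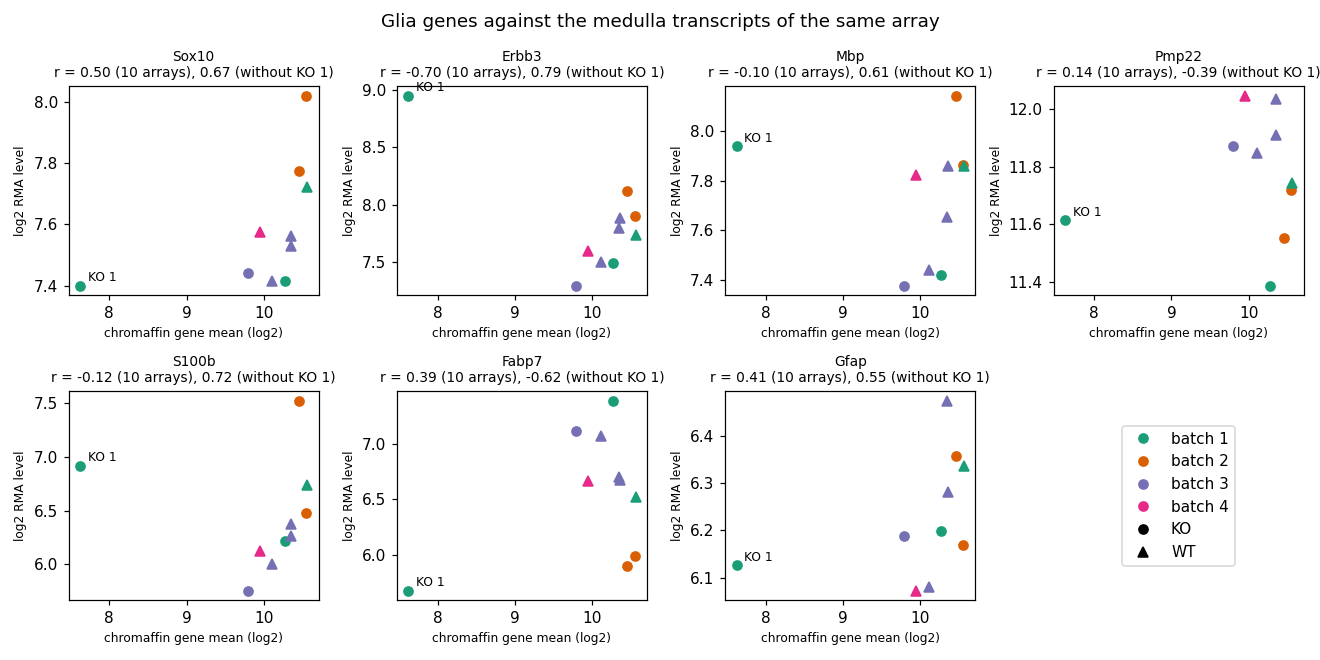
Level of each glia gene (log2, vertical axis) against the mean level of 26 chromaffin genes on the same array (log2, horizontal axis). Circles are KO, triangles WT, colours the labelled batches. KO 1 sits alone at a chromaffin mean of 7.62, and the other 9 arrays lie between 9.79 and 10.56.

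Set relative to the chromaffin mean of the same array, the glia genes did not differ between genotypes beyond the spread between mice. The difference was 0.80 for S100b, 0.78 for Erbb3, 0.58 for Sox10, 0.55 for Mbp, 0.49 for Gfap, 0.24 for Pmp22 and 0.21 for Fabp7 (lowest exact permutation p = 0.262 of 7 compared). These positive values rest on KO 1, where Erbb3 was 3.89 and S100b 3.18 higher relative to the chromaffin mean than on the other arrays. Without it they became 0.19 for S100b, 0.10 for Sox10, -0.003 for Erbb3, -0.03 for Mbp, -0.02 for Gfap, -0.29 for Pmp22 and -0.13 for Fabp7 (lowest exact permutation p = 0.254).

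The members did not vary as 1 group. Of 21 pairs, 4 had a Pearson r over 0.5 and 4 under -0.5 over the 10 arrays, given here as a description of arrays that share batches and tissue content. Mbp and S100b ran together (r = 0.86), as did Erbb3 with S100b (r = 0.70) and with Mbp (r = 0.69). Fabp7 ran against Mbp (r = -0.88), Erbb3 (r = -0.85), S100b (r = -0.79) and Sox10 (r = -0.53). Pmp22 and Gfap went with none of the others at an r over 0.5. The largest shift on leaving out KO 1 was between Sox10 and Erbb3, the regulator and the receptor, from 0.07 to 0.70. The number of pairs over 0.5 then rose to 8, with Sox10 and Fabp7 at -0.90 and Erbb3 and Mbp at 0.90.

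**Figure D4:**
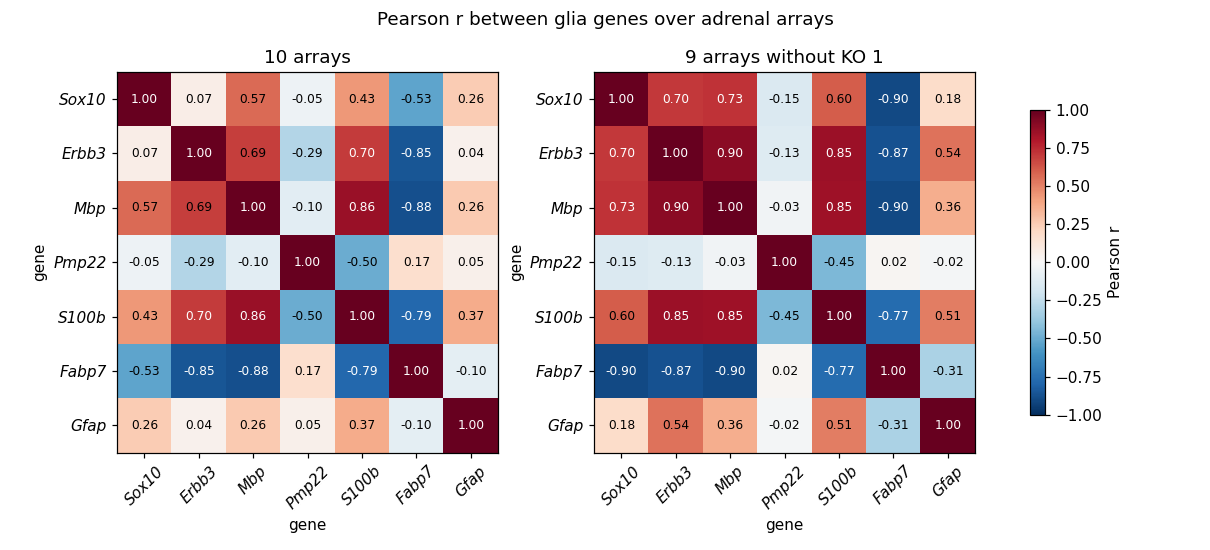
Pearson r between the glia genes over 10 arrays (left) and over the 9 arrays without KO 1 (right), red for positive and blue for negative. Fabp7 is negative against Sox10, Erbb3, Mbp and S100b in both panels (-0.53 or lower), and Sox10 with Erbb3 moves from 0.07 to 0.70.

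Much of this pattern coincided with 3 arrays, KO 2, KO 5 and WT 3. The first principal component of all probes, with 53.8% of the variance, placed these 3 at 0.43 to 0.49 and the others at 0.12 or lower. Its Pearson correlation was -0.97 with Mbp, 0.86 with Fabp7, -0.75 with S100b, -0.64 with Erbb3, -0.63 with Sox10, -0.21 with Gfap and -0.02 with Pmp22. Fabp7 had its 3 highest levels on these arrays, as did 12.2% of all genes, and Erbb3 and Mbp had their 3 lowest, as did 18.1% of all genes. The members' shares, 1 of 7 and 2 of 7, were thus of the order seen among all genes. Left without these arrays, 3 pairs had an r over 0.5 and 6 under -0.5, with Mbp and S100b at 0.88, Erbb3 and Fabp7 at -0.81 and Pmp22 and Fabp7 at 0.88. The source of the component was not tested.

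Other genes of the Schwann lineage were read from a list, of which 20 were measured. Of these, 13 had a higher and 7 a lower mean in KO (median difference 0.04, or -0.16 with batch as a block), and 0 were called. Ngfr, the neurotrophin receptor of immature Schwann cells, was at 7.47 to 8.12 on KO and 7.30 to 8.06 on WT arrays (difference 0.01). Foxd3 and Sox2, transcription factors of neural crest and early glia, differed by 0.06 and 0.08. Over the 10 arrays Sox10 had an r of 0.77 with Ngfr, 0.73 with Foxd3 and 0.79 with Sox2, but -0.50 with Cdh19, a cadherin of Schwann cell precursors. Cdh19 was at 5.92, 5.95 and 6.16 on KO 2, KO 5 and WT 3 and at 4.74 or lower on the other arrays, the side on which Fabp7 was also high. Zeb2, a transcription factor of Schwann cell maturation, shared this order with 10.07, 10.29 and 10.15 on those arrays and 9.23 or lower on the rest. These were 2 of the 20 genes, or 10%, beside 12.2% of all genes, and Sox2, Lgi4, Dhh and Tfap2a, 4 of the 20, had their 3 lowest levels on those arrays, beside 18.1% of all genes. Scn7a and Art3 were instead highest on KO 1 at 10.39 and 10.30.

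A list of further peripheral myelin genes had 17 measured members. In KO 6 were higher and 11 lower (median -0.04), with 0 called. Gldn, the gliomedin that gathers sodium channels at nodes, was the 1 gene at an unadjusted p under 0.05 (6.65 ± 0.17 in KO and 7.11 ± 0.36 in WT, difference -0.47, limma adjusted p = 1.00), so 1 of 17 was lower at that threshold, beside 2.5% of all probes, and 0 were higher. Mal, a myelin and epithelial lipid raft protein, was at 7.98 ± 0.21 in KO and 8.19 ± 0.07 in WT. Gjb1, the connexin of Schwann cells and of hepatocytes, was at 9.78 on KO 1 and at 6.17 to 7.10 on the others, next to the liver transcripts of that array. The mean of the myelin list had an r of 0.75 with Mbp, 0.63 with Sox10 and 0.31 with Pmp22, but -0.77 with Fabp7.

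**Figure D5:**
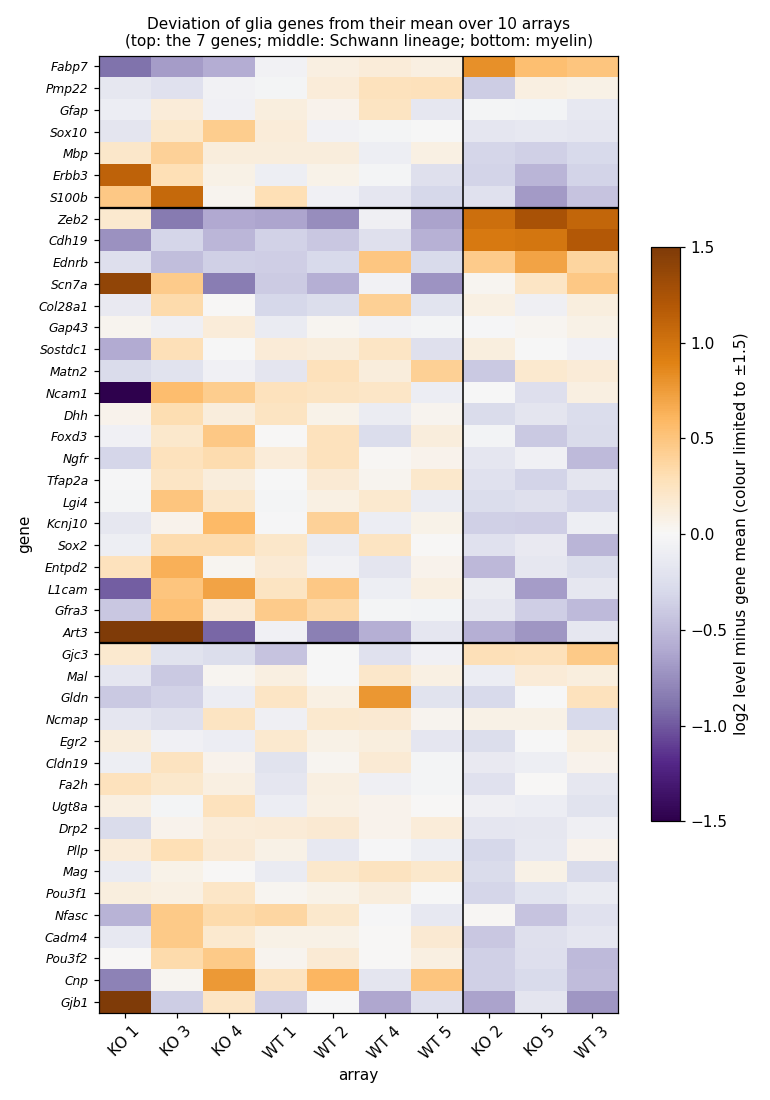
Level of the 7 glia genes, 20 further Schwann lineage genes and 17 further myelin genes minus the mean of that gene over the 10 arrays (log2, colour), by array. The last 3 columns are KO 2, KO 5 and WT 3, which hold the 3 highest levels of Fabp7, Zeb2, Cdh19 and Gjc3 and the 3 lowest of Erbb3, Mbp, Sox2, Lgi4, Dhh, Tfap2a, Pou3f1, Pou3f2 and Cadm4.

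Of the ligands, co-receptors and proteases of ErbB3 signalling, 13 of 13 were measured, 7 higher and 6 lower in KO (median 0.004), and 0 were called. Nrg1, the axonal ligand, was at 6.72 to 7.16 on KO and 6.62 to 6.88 on WT arrays (difference 0.11). Erbb2, the co-receptor that ErbB3 needs for signalling, was at 7.00 to 8.04 on KO and 7.47 to 7.80 on WT arrays (difference -0.18). Nrg4, a neuregulin made by brown fat, was at 10.57 on KO 1 and 10.03 on KO 3, the arrays with the most fat transcripts, and at 5.95 to 7.90 on the others. Egfr was likewise highest on KO 1 at 10.29, where Erbb3 had its peak.

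Markers of other glia and pigment cells were read as a check on what the members could stand for. Of 12 genes of central nervous system glia, 9 were higher and 3 lower in KO (list mean 6.59 to 7.13 on KO and 6.60 to 6.85 on WT arrays), with 0 called, and Olig1 was at 7.37 ± 0.23 in KO and 7.04 ± 0.20 in WT. Olig1 was the 1 gene of this list at an unadjusted limma p under 0.05, on the higher side, beside 0.923% of all probes. The adrenal gland should lack oligodendrocytes, but the mean of this list had an r of 0.87 with Mbp, 0.80 with S100b and -0.93 with Fabp7. The list also holds Aldh1l1, at 10.03 to 11.44, and Slc1a3, at 9.78 on KO 1, 8.78 on KO 3 and 6.96 to 8.00 on the others. These r values are thus not those of oligodendrocyte genes alone, which were not computed. Of 7 melanocyte genes, a lineage that also uses Sox10, 6 were higher and 1 lower in KO (list mean 6.27 to 6.48 on KO and 6.23 to 6.35 on WT arrays), with 0 called. Mlana and Slc45a2 were the 2 of 7 at an unadjusted limma p under 0.05, each 0.24 higher in KO, beside 0.923% of all probes. Tyrp1 was the 1 gene lower in KO (difference -0.17). Mitf, its regulator, was highest on KO 5, WT 3 and KO 2 at 7.57, 7.54 and 7.53, and Sox10 was at 7.42 to 7.44 on these arrays.

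None of the 3 genes whose pattern over 10 arrays was most like that of a member was on the glia lists. Sox10 was most like Lrrtm1 (r = 0.97), Tnp2 and Tubb2b, and Erbb3 most like Tfr2 (r = 0.99), a transferrin receptor of liver, and Krt19 and Tkfc. Mbp was most like Opa3 (r = 0.99), Gm16551 and Smpd1, and 834 of 19660 genes had an r over 0.9 with it. For Fabp7 they were Rnf32 (r = 0.98), Zfp398 and Gas5, among 242 genes over 0.9, and for S100b Dmtn (r = 0.97), Vegfb and Traf4. Pmp22 was most like Sde2 (r = 0.97), Slc39a9 and Txnrd1, with 7 genes over 0.9. Gfap had 0 genes over 0.9, and Ccr6 came nearest (r = 0.88). Over the 9 arrays without KO 1, Sostdc1 of the Schwann lineage list was among the 3 genes most like Gfap (r = 0.89).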

How the data were processed

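Adrenal RNA of 10 mice was measured on whole-transcript arrays, 1 per mouse. The authors deposited log2 levels per probe. The submitters' processing notes name RMA. Its version, and whether batches were corrected, are details not given in the sources used here. Of 35557 rows, 25689 held values on all arrays. After 25 controls were left out, 25664 probes were tested, of which 20777 are paired with 1 symbol, 232 with several and 4655 with none. A gene was read from its single-symbol probe with the highest mean. All 165 listed genes that were measured matched RefSeq by Entrez ID.

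The genotype contrast was fitted with limma 3.58.1 under R 4.3.3, using lmFit and eBayes with two-sided tests. Benjamini-Hochberg adjustment ran over all probes, with a threshold of 0.05. Single genes were also tested by exact two-sided permutation of arrays with SciPy 1.17.1 and NumPy 2.4.6 in Python 3.11.15. Correlations over 10 arrays were tested with 100000 permutations and over 9 arrays by full enumeration. Each array is a different mouse by its label. Replicates were numbered in accession order, which pairs no samples. The members and lists were chosen with earlier results of these data known. Besides the members, the rule named Crem, up to 4 genes per list with the smallest p, the 3 genes most like each member and a set of markers. Zeb2, Gjc3, Lgi4, Dhh, Tfap2a, Egr2, Pou3f1, Pou3f2 and Cadm4 were named after their values were seen. Adjustment over the 7 members alone was left out. The scripts were tested on simulated data. Alternatives were batch as a fixed or random block, within batches, a median shift, a repeated quantile normalisation, eBayes with trend and robust, arrayWeights, the brighter probes, another medulla reference and leaving out each array. Figures were drawn with matplotlib 3.10.9.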

Additional observations from a re-analysis of the deposited data

Results flagged for a closer look

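Of 152 groups of 5 arrays examined among the glia genes and lists, 11 held an array far from the other 4 by Dixon's test, and chance gives about 1 in 20. KO 1 was the outlying array in 6 of them. The mean of the chromaffin genes was lowest on KO 1 at 7.62. Relative to that mean, Erbb3 was highest on KO 1 at 1.327, Mbp at 0.3194, Sox10 at -0.219 and Gfap at -1.494, so these 4 share the low chromaffin mean. Gjb1, the connexin of Schwann cells and hepatocytes, was highest on KO 1 at 9.775.

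KO 3 had the highest mean of the Schwann lineage list among KO arrays at 7.675. WT 3 stood apart from the other WT arrays with the lowest mean of the central nervous system glia list at 6.603, the lowest Pou3f2 at 6.817 and the highest Cdh19 at 6.161. Egr2, the transcription factor of myelination, was lowest on WT 5 at 6.532. No member was itself an outlier on its own level in either genotype.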

How the results depend on the processing

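The count of glia genes called stayed at 0 in the 11 alternatives run for it and on leaving out each of the 10 arrays. For the single differences, 61 values under other fits and 64 on leaving out an array kept their direction and side of the threshold, and 20 and 6 turned direction. The fixed block for batch draws on batches 1 and 3 alone. With it the difference turned to -0.179 for Sox10, -0.00122 for Erbb3, -0.229 for Mbp, -0.323 for S100b and 0.166 for Fabp7. Within batch 1 it turned to -0.313 for Sox10, -0.179 for Mbp, -0.17 for S100b and 0.0121 for Fabp7, and within batch 3 to -0.0603 for Sox10, -0.432 for Erbb3, -0.274 for Mbp, -0.46 for S100b and 0.303 for Fabp7. For Mbp it was -0.0407 with a random block and -0.00867 with arrayWeights. An alternative added after the data were seen left out KO 1 and KO 3. The difference was then -0.139 for Erbb3, -0.174 for Mbp, -0.151 for S100b and 0.106 for Fabp7. These arrays held the highest levels of Erbb3, Mbp and S100b and the lowest of Fabp7, so those changes of sign are no test. Leaving out each array gave -0.0524 to 0.102 for Sox10, -0.0772 to 0.115 for Mbp and -0.0848 to 0.0157 for Gfap. Relative to the chromaffin mean, leaving out each array gave -0.00295 to 1.02 for Erbb3, -0.0296 to 0.764 for Mbp and -0.286 to 0.439 for Pmp22. It gave -0.131 to 0.523 for Fabp7 and -0.0237 to 0.698 for Gfap. In each case the lowest value was the one without KO 1. Relative to the same mean, Fabp7 was at -0.0242 without KO 2, KO 5 and WT 3. Those arrays held its highest levels, so that value is no test of Fabp7.

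For the correlation with the chromaffin mean, Spearman's rho was 0.758 for Sox10, 0.273 for Erbb3, 0.37 for Mbp, -0.176 for Pmp22, 0.491 for S100b and -0.236 for Fabp7. Without KO 1 and KO 5, r was 0.649, 0.444, -0.404, 0.615 and -0.557 for Erbb3, Mbp, Pmp22, S100b and Fabp7, and Erbb3 had -0.796 after centring within batches. Leaving out each array gave r of 0.468 to 0.675 for Sox10, -0.803 to 0.786 for Erbb3, -0.244 to 0.614 for Mbp, -0.393 to 0.278 for Pmp22, -0.393 to 0.717 for S100b and -0.617 to 0.522 for Fabp7, and 8 pairs of members had an r over 0.5 without KO 1. Fewer arrays enter these alternatives, except for rho, which uses all 10, and the cause of the shifts was not tested. The filter on brighter probes kept 4 members, Erbb3, Pmp22, Sox10 and Mbp. Averaging the probes of a gene changes nothing, as each member has 1 probe. Background correction was not run, since it cannot be repeated on summarised values. No paired analysis was possible because the labels give no shared replicate numbers. Signal over background is not known for these values, so low members may be limited by it.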
